A study of Arabidopsis thaliana with 48 samples.

Results

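The genes described here are the xyloglucan endotransglucosylase/hydrolase (XTH) genes and the expansin and expansin-like genes (EXPA, EXPB, EXLA, EXLB) of Arabidopsis thaliana. They were taken by name from the deposited table, which gives 1 value per gene and library. Of its 26988 names, 64 have the form of these family names, and 49 of those had a count in at least 4 of the 48 libraries. Family genes that the table lists under other names, such as EXGT-A3, XTR8, XTR6 and TCH4, are not among them. The 49 comprise 24 XTH genes and 25 expansin genes, namely 18 EXPA, 3 EXPB, 3 EXLA and 1 EXLB. The rule uses the family names, which come from sequence, and that count minimum. A low-count filter over all genes left 39 of the 49 for testing, 20 XTH and 19 expansin genes, among 19037 genes tested.

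The plants were 3-week-old Columbia seedlings of 3 genotypes: gi-2, a mutant of the clock-associated gene GIGANTEA (GI), aba1-6, a mutant of the zeaxanthin epoxidase gene ABA1 that is deficient in abscisic acid (ABA), and wild type. Each genotype was grown under drought, with a relative soil water content of 30% held from soon after germination, or with normal watering, at 80 to 90%. Days were short, with 8 h of light, and harvests fell at ZT1, ZT8, ZT12 and ZT16 (zeitgeber time, hours from lights on); on the harvest day the light was kept on after ZT8 for all plants. Each of the 24 groups had 2 libraries of poly(A) RNA, called biological replicates in the labels, and each library pooled the aerial parts of about 50 seedlings from 3 pots. GI is named in the title of the series as a repressor of the ABA response. The comparisons set drought against normal watering within each genotype, and each mutant against wild type.

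XTH enzymes cut xyloglucan, the hemicellulose that coats and ties cellulose microfibrils in the primary wall, and rejoin the cut end to another xyloglucan chain; some members hydrolyse it instead. Expansins loosen the wall without cutting it, by slipping polysaccharides past each other at acid pH, which plasma membrane proton pumps set. Both families let turgid cells enlarge, and water deficit and ABA are known to limit the enlargement of leaf cells.

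Total counts per library ranged from 1920012 to 26925706, and the 49 genes held 0.121 to 0.236% of them. Levels are given as CPM (counts scaled to library totals with TMM factors, in the usual unit). The mesophyll markers summed to 26322 to 40153 CPM in gi-2 under drought and to a similar range in the other groups, with no library below 19490 CPM; root hair and floral markers were at or near 0. The 10 root markers gave 7.25 to 10.1 CPM in gi-2 under drought, against 16.1 to 33.8 CPM in gi-2 with normal watering; 4.82 to 10.4 CPM in aba1-6 under drought, against 14.2 to 41.1 CPM with normal watering; and 5.39 to 9.70 CPM in wild type under drought, against 13 to 27.1 CPM with normal watering. The largest part of that sum over the 48 libraries was NRT2:1, a nitrate transporter gene of roots, whose log2 fold change under drought in wild type was -3.94 ± 0.45 (edgeR quasi-likelihood test, adjusted p = 2.09e-07). It was the 1 root marker of 4 tested that was called there and in aba1-6, and in gi-2 a second, AT2G28670, was called lower too (-0.52); in wild type AT2G28670 averaged 5.45 CPM under drought, against 5.10 CPM with normal watering, and was not called. Of the root hair regulators, RHD6 and RSL4 were at 0 in every drought library of each genotype. They had counts in only 5 and 2 of the 48 libraries, and RSL4 was at 0 in wild type with normal watering too. In these bulk samples fewer cells of a type and less RNA per cell cannot be told apart. GI and ABA1 transcripts were present in the mutants (mean 95.3 CPM for GI in gi-2 against 114 CPM in wild type under drought, and 235 CPM for ABA1 in aba1-6 against 301 CPM in wild type), so these levels do not check the labels. The library of gi-2 under drought at ZT16, replicate 2, is tagged as wild type but titled gi-2, and was grouped by its title.

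Per kilobase of coding sequence, and averaged over all 48 libraries, XTH4 had the highest level (298 CPM per kb), followed by EXPA1 (242), EXPA6 (179), EXPB3 (163), XTH7 (148) and XTH6 (128). These 6 genes held 51.6% of the summed level of the 49. The α-expansins (EXPA), the main wall-loosening expansins of dicots, held 48.8%, and the XTH genes of group 1 (XTH1 to XTH11) held 30.8%. The EXPB genes held 8.59%, the XTH genes of group 2 (XTH12 to XTH26) 5.51% and those of group 3 (XTH27 to XTH33) 4.65%. XTH genes listed under other names, among them XTR8 and EXGT-A3, are not among the 49 and are left out of these shares and ranks. XTR8 has the coding length of XTH7 (882 bases). Its group means ran from 134 CPM (wild type, normal watering) to 219 CPM (aba1-6, drought), beside 131 CPM for XTH7 over all 48 libraries. Most of group 2 was low, with a median of 1.17 CPM per kb over 11 genes. The same 6 genes led per length of the longest transcript, in the order XTH4, EXPA1, XTH7, EXPA6, XTH6 and EXPB3.

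The 10 members that did not pass the filter averaged under 1 CPM over the 48 libraries. They were EXPA7 and EXPA18, known from root hairs, with 22 and 20 counts in all, XTH12 with 17, XTH21 with 35, EXPB2 with 92, XTH33 with 133, EXPA17 with 162, XTH29 with 168, EXPA21 with 180 and EXLA3 with 182. Of the 15 names with counts in fewer than 4 libraries, 11 were at 0 throughout (EXPA22 to EXPA25, EXP26, EXPB4 to EXPB6 and XTH1 to XTH3), and EXPA2, EXPA12, XTH13 and XTH26 had at most 4 counts in a library. XTH26 and XTH13 are also known from roots.

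Upstream sequences of 4 members are shown because XTH17 and XTH18 share 87 of the last 100 bases before the start and had different values in gi-2, and EXPA1 and EXPB3 are abundant expansins with motif matches. They are the 250 bases before the annotated start in RefSeq's TAIR10.1 assembly, read 5′ to 3′ on the gene's strand; capitals mark CATGTG in XTH17 and XTH18, CGTGTG and CATGTG in EXPA1, and CGTGCG in EXPB3, each also where it lies on the opposite strand. XTH17 is on the plus strand (chr1:24256804-24257053), XTH18 on the minus strand (chr4:14827212-14827461), EXPA1 on the plus strand (chr1:26141476-26141725) and EXPB3 on the minus strand (chr4:14002125-14002374).
XTH17: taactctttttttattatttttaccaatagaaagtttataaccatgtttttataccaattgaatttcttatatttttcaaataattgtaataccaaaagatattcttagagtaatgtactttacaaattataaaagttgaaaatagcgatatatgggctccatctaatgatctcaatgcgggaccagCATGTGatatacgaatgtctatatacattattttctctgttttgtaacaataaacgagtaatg
XTH18: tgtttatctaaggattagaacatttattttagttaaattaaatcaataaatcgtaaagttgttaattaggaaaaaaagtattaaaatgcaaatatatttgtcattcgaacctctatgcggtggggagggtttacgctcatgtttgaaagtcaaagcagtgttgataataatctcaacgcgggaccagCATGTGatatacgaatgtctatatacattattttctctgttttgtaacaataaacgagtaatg
EXPA1: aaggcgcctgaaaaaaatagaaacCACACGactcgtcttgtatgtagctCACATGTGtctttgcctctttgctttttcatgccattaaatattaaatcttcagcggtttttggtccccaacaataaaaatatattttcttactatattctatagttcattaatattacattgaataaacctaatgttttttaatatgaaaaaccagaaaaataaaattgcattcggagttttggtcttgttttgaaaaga
EXPB3: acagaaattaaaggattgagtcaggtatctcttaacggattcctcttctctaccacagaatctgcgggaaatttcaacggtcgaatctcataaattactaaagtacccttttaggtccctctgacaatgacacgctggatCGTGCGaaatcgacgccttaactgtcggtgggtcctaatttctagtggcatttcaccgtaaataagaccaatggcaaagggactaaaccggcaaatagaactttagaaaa
XTH17 and XTH18 share the last 73 bases before the start without a difference, and 87 of the last 100. Among the 1176 pairs of the 49 members this was the 1 pair with 60 or more identical bases of 100 at the same distance from the start; the median pair shared 29.0. In both, CATGTG stands 63 bases before the start. In EXPA1, CATGTG overlaps its own reverse complement.

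The G-box CACGTG, the core of the element through which ABA-responsive bZIP factors and PIF factors bind DNA, was found on either strand in 1 of the 49 members (EXPB2) within 250 bases before to 50 after the start, and in 7.68% of 27443 promoters of that length. CATGTG was found in 9 members and 12.9% of all promoters, CGTGTG in 5 members and 6.52%, and CGTGCG in 3 members and 1.96%. CATGTG and CGTGTG occur together in EXPA1 and XTH25. These matches describe the letters in the window only.

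Drought lowered most XTH genes in wild type and raised several expansins. Averaged over the 4 times, 23 of the 39 tested members changed (7 higher, 16 lower; edgeR quasi-likelihood test, adjusted p under 0.05), against 23.0% of all genes tested (10.2% higher and 12.7% lower). By family, 14 of 20 XTH genes changed, 13 of them lower, while among 19 expansins 6 rose and 3 fell. The median log2 fold change was -1.25 for the XTH genes and 0.10 for the expansins, beside 0.0078 over all genes tested.

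In group 1, which holds the abundant leaf XTH genes, 5 of 8 members fell and 0 rose. XTH6 had 126 and 90.5 CPM at ZT1 under drought, against 306 and 367 CPM with normal watering. At ZT8 it had 32.4 and 25.7 CPM under drought, against 135 and 114 CPM with normal watering, and at ZT12 16.5 and 14.7 CPM, against 101 and 93.5 CPM. At ZT16 it had 131 and 80.4 CPM under drought, against 164 and 135 CPM with normal watering. Both drought libraries lay below both normal libraries at each time, by the least at ZT16. Its time-averaged log2 fold change was -1.71 ± 0.13 (SE; edgeR adjusted p = 4.93e-11). XTH9, known from shoot tips and young stems, had a lowest, median and highest level of 22.5, 45.0 and 94.4 CPM under drought, against 71.8, 103 and 185 CPM with normal watering, a log2 fold change of -1.34 ± 0.073 (edgeR adjusted p = 4.19e-18). XTH4, the most abundant member per length, had 79.2, 126 and 203 CPM under drought, against 174, 244 and 408 CPM with normal watering (-1.10 ± 0.096 on the log2 scale; edgeR adjusted p = 3.41e-11). For both genes the 8 libraries of the groups overlapped over the day. XTH7 (-0.74) and XTH8 (-0.51) also fell.

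Group 2 showed larger fold changes at lower levels: 6 of its 9 tested members fell and 0 rose. XTH16 had 4.56, 8.90 and 22.5 CPM (lowest, median, highest) under drought, against 21.7, 32.8 and 55.8 CPM with normal watering, a log2 fold change of -1.73 ± 0.15 (edgeR adjusted p = 1.35e-10). XTH24, first described from meristems as MERI5, averaged 37.3 CPM under drought, against 87.5 CPM with normal watering (-1.24 ± 0.13; edgeR adjusted p = 1.63e-08). The groups of both genes overlapped. XTH19 averaged 1.68 CPM under drought, against 6.99 CPM with normal watering (-1.94 ± 0.34; edgeR adjusted p = 5.36e-05), and XTH18 0.498 CPM, against 1.55 CPM (-1.64 ± 0.50; edgeR adjusted p = 0.0134). XTH20 averaged 0.146 CPM under drought, against 0.796 CPM with normal watering, and XTH15, known for induction by shade, 0.511 CPM, against 1.80 CPM. Both were called (edgeR adjusted p = 0.00387 and 0.000375), and no fold is given for them because some groups were at 0. XTH15 overlaps a gene on the opposite strand, so its level is uncertain. XTH18, XTH19 and XTH20 are known from roots, and the summed root markers, mainly NRT2:1, were lower under drought in every genotype; the part of root tissue in these results was not tested. The call of XTH18 was lost without wild type, normal watering, ZT12, replicate 2 or ZT8, replicate 2 (edgeR adjusted p up to 0.951). XTH17, with the same last 73 bases before its start as XTH18, averaged 2.88 CPM under drought, against 2.93 CPM with normal watering, and was not called (0.0052 ± 0.30; edgeR adjusted p = 1).

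Group 3 was mixed. XTH30 fell, averaging 1.54 CPM under drought, against 5.13 CPM with normal watering (-1.52 ± 0.28; edgeR adjusted p = 5.52e-05), and XTH28 fell by less (-0.31 ± 0.071; edgeR adjusted p = 0.000897). XTH32, whose subgroup holds the xyloglucan hydrolases of the family, was the 1 tested XTH member that rose. XTR8, an XTH gene listed under another name and so no member, was called higher too. It averaged 157 CPM under drought, against 134 CPM with normal watering. XTH32 had 30.8, 48.9 and 111 CPM under drought, against 14.7, 32.5 and 79.5 CPM with normal watering (0.64 ± 0.073, edgeR adjusted p = 5.01e-09). The groups overlapped over the day, but at each time both drought libraries lay above both normal libraries.

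Among the expansins, the rises under drought included abundant members. EXPA15 had 69.4 and 94.0 CPM at ZT1 under drought, against 43.6 and 42.5 CPM with normal watering. At ZT8 it had 120.2 and 143 CPM under drought, against 60.5 and 55.6 CPM, at ZT12 159 and 172 CPM, against 79.2 and 80.6 CPM, and at ZT16 92.5 and 101 CPM, against 85.4 and 85.0 CPM. The drought libraries were the higher ones at every time, with the narrowest gap at ZT16. The log2 fold change was 0.83 ± 0.079 (edgeR adjusted p = 4.15e-11). EXPB3, a β-expansin, had 117, 179 and 216 CPM under drought, against 61.4, 117 and 143 CPM with normal watering (0.69 ± 0.077; edgeR adjusted p = 3.45e-09). EXLB1, an expansin-like gene whose product is assigned to the family by sequence alone, had 15.5, 33.7 and 67.1 CPM under drought, against 6.52, 13.2 and 25.5 CPM with normal watering (1.30 ± 0.14; edgeR adjusted p = 6.54e-09). For both, the drought libraries lay above the normal ones at each time and overlapped with them over the day. EXPB1 (0.52), EXPA13 (0.40) and EXPA4 (0.23) rose by less, and the call of EXPA4 was lost without any 1 of 6 libraries (edgeR adjusted p up to 0.0817).

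The 3 expansins that fell in wild type were EXLA1, EXPA8 and EXPA6. EXLA1 had 0.617, 1.24 and 2.31 CPM under drought, against 2.43, 3.28 and 6.69 CPM with normal watering, with no overlap between the 8 libraries of each group (-1.67 ± 0.28; edgeR adjusted p = 1.39e-05). EXLA1 overlaps a gene on the opposite strand, and whether counting used strand is not given in the sources used here, so its level is uncertain. EXPA8 averaged 19.3 CPM under drought, against 44.9 CPM with normal watering (-1.08 ± 0.13; edgeR adjusted p = 5.42e-08), and EXPA6 111 CPM, against 165 CPM (-0.58 ± 0.056; edgeR adjusted p = 8.67e-11). EXPA1, the most abundant expansin, was not called (-0.097 ± 0.068; edgeR adjusted p = 0.322). The epidermal markers PDF1 (-0.61 ± 0.12) and ATML1 (-0.42 ± 0.075) were also lower in wild type under drought (edgeR adjusted p = 0.000421 and 3.15e-05). So were RCA (-0.32 ± 0.099), the 1 called of 5 mesophyll markers, and KAT1, the 1 called of 5 guard cell markers. The part of cell composition in the members' changes was not tested.

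**Figure D1:**
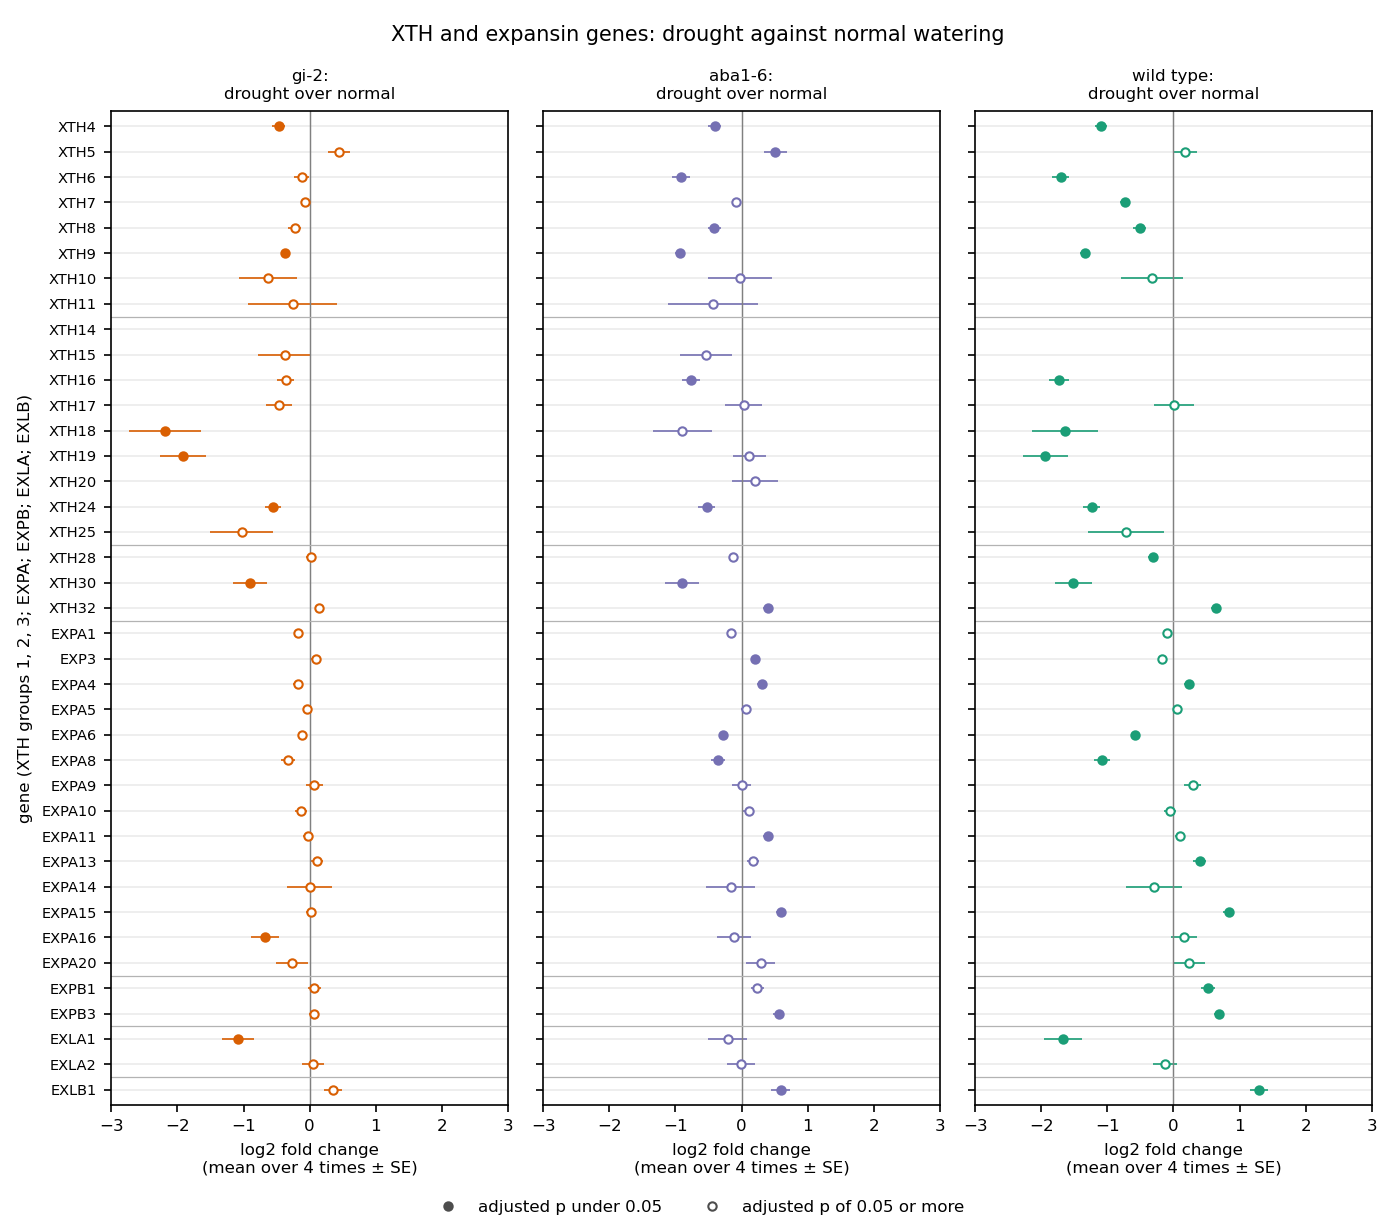
Log2 fold change of drought over normal watering for the 39 tested members in gi-2, aba1-6 and wild type, averaged over the 4 times; points are estimates, bars standard errors from the edgeR fit, filled points those with adjusted p under 0.05. Filled XTH points left of 0 number 6 in gi-2, 7 in aba1-6 and 11 in wild type; genes with both libraries of a group at 0 are left blank, among them XTH20 in gi-2 and XTH15 and XTH20 in wild type, which also fell.

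The fall of XTH genes in wild type was seen at ZT1, ZT8 and ZT12, and 0 of 20 XTH genes were called at ZT16. Tested time by time, 20 members changed at ZT1 (6 higher, 14 lower; 6.31% of all genes, 2.78% higher and 3.53% lower), 15 at ZT8 (5 higher, 10 lower; 6.53%, 2.27% higher and 4.26% lower), 15 at ZT12 (4 higher, 11 lower; 6.12%, 2.39% higher and 3.73% lower) and 3 at ZT16 (EXPB3 and EXLB1 higher, EXPA1 lower; 3.7%, 1.64% higher and 2.06% lower). The XTH genes made up 12, 8, 9 and 0 of these in the same order of times. The median log2 fold change of the 20 XTH genes was -1.45 (ZT1), -1.08 (ZT8), -1.13 (ZT12) and -0.33 (ZT16). The libraries with the lowest totals of the series enter these contrasts. They were wild type, normal watering, ZT12, replicate 1 (1920012 counts) and wild type, drought, ZT16, replicate 2 (2289812 counts). The part of depth in the number of calls at each time was not tested.

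A direct test of whether the drought effect differed among the 4 times called 6 members, XTH6, XTH7, XTH9, XTH16, EXPA11 and EXPA15, against 0.819% of all genes. For XTH9 the effect was -1.61 ± 0.15 (ZT1), -1.60 ± 0.14 (ZT8), -1.86 ± 0.15 (ZT12) and -0.29 ± 0.14 (ZT16; edgeR, 3 degrees of freedom, adjusted p = 7.44e-06). XTH9 had 26.6 and 31.9 CPM at ZT12 under drought, against 99.0 and 113 CPM with normal watering, and 94.4 and 71.6 CPM at ZT16, against 99.3 and 107 CPM. Under drought the ZT16 libraries were above the ZT12 ones, and with normal watering the ZT12 and ZT16 libraries overlapped. XTH7 went the same way, with -1.29 at ZT12 and -0.096 at ZT16 (adjusted p = 0.000204 by the edgeR test over times; 0.102, not called, when the fit held the compared libraries alone). XTH6 had -2.64 at ZT12 and -0.46 at ZT16 (edgeR adjusted p = 0.00784), a call lost without wild type, drought, ZT16, replicate 1 or normal watering, ZT16, replicate 2 (adjusted p up to 0.0853). EXPA11 differed at ZT1, where it was higher under drought (0.95 ± 0.15), and was at -0.38, -0.088 and -0.092 at ZT8, ZT12 and ZT16 (edgeR adjusted p over times = 0.000941; 0.208, not called, with the compared libraries alone). The calls of EXPA15 and XTH16 (edgeR adjusted p = 0.0328 and 0.0439) were each lost without any 1 of 7 and of 10 libraries, and with the compared libraries alone (0.355 and 0.718).

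**Figure D2:**
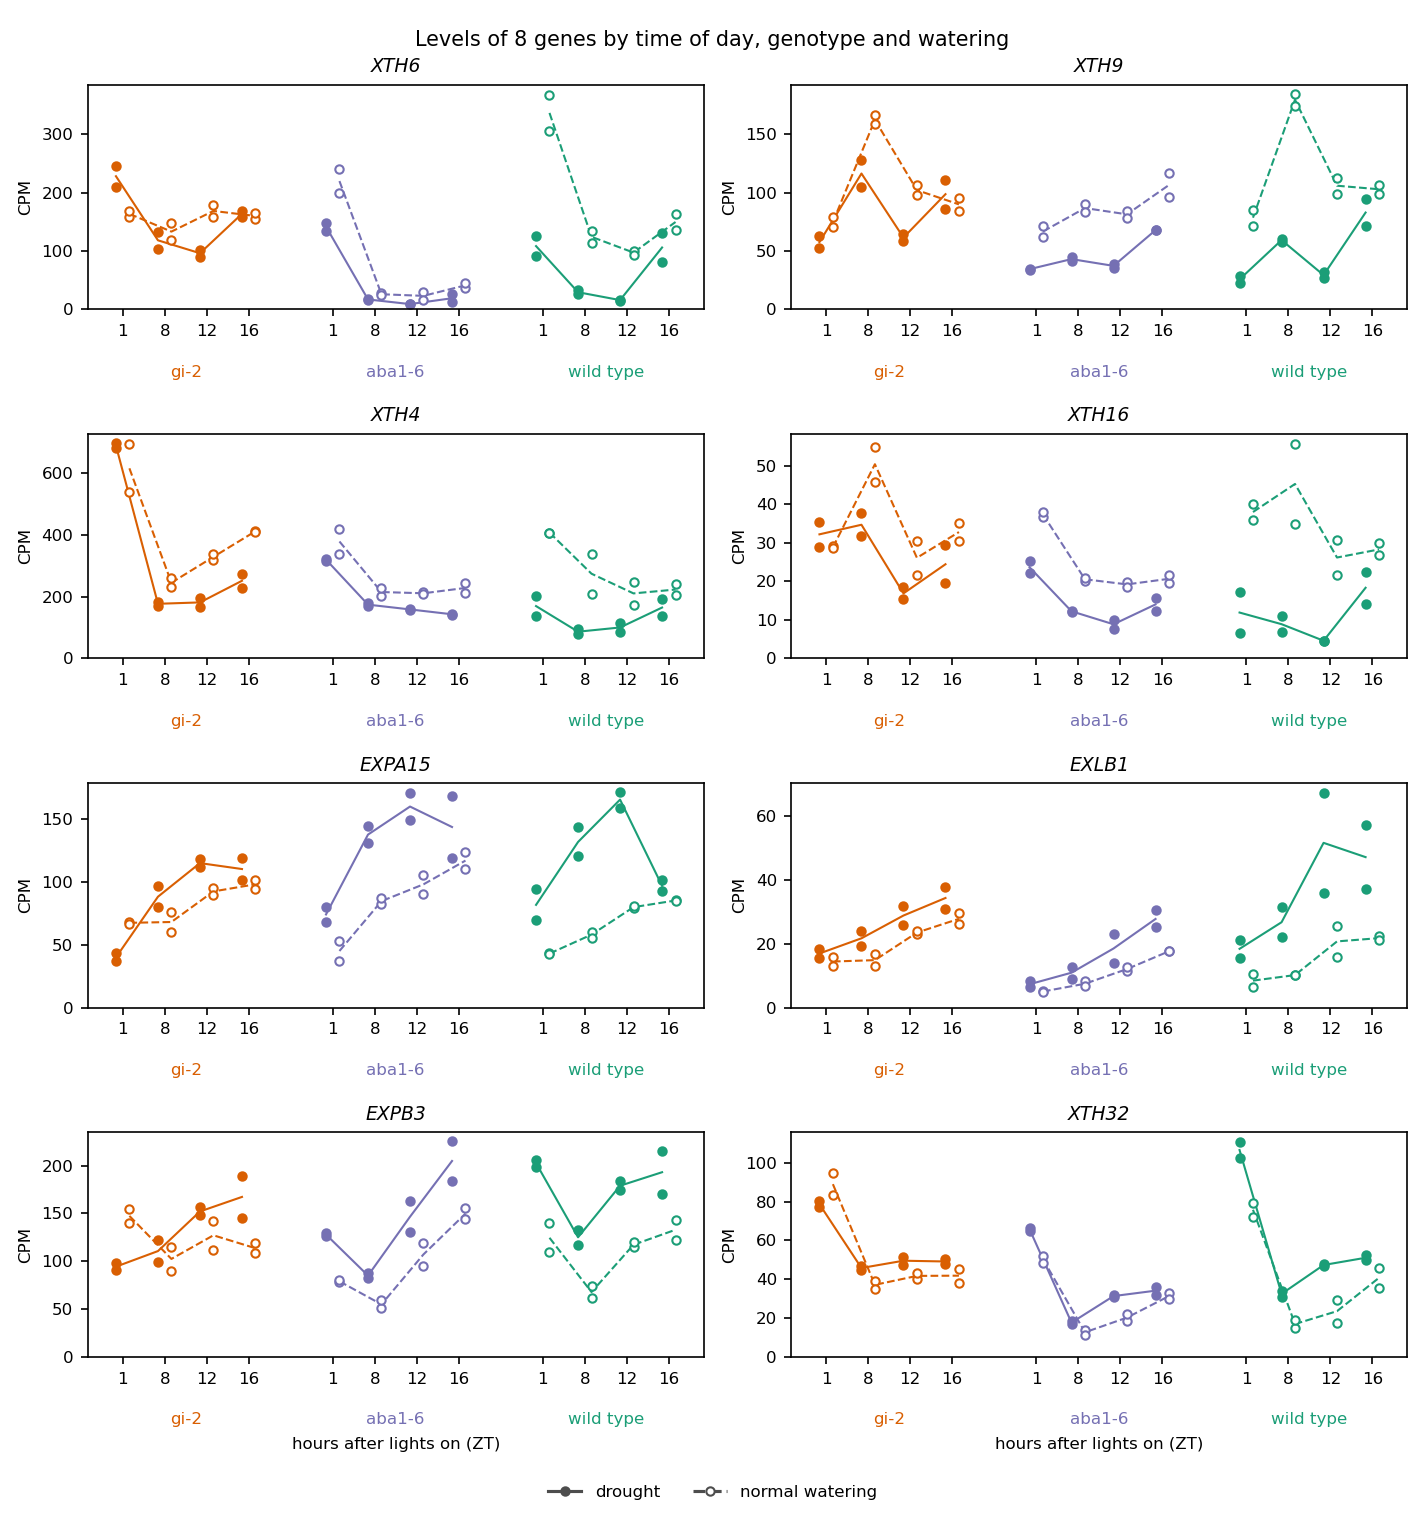
Level in CPM of 8 members by zeitgeber time in gi-2, aba1-6 and wild type; each point is 1 library, filled with solid lines for drought and open with dashed lines for normal watering, and lines join the means of 2 libraries. In wild type the drought points of XTH6, XTH9 and XTH16 approach the normal points at ZT16, and those of EXPA15, EXLB1 and EXPB3 lie above them.

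In gi-2 fewer members changed under drought, and all that changed fell: 9 of 39 (0 higher, 9 lower), against 5.17% of all genes tested (1.64% higher and 3.53% lower). In aba1-6 17 members changed (8 higher, 9 lower), against 9.32% (4.01% higher and 5.31% lower). The XTH genes gave 7 calls in gi-2, all lower, and 9 in aba1-6, 7 of them lower. The median log2 fold change of the XTH genes was -0.42 in gi-2 and -0.42 in aba1-6. Each drought effect rests on its own genotype's libraries, and whether it differs from that in wild type was tested directly.

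In gi-2, XTH6 had a lowest, median and highest level of 89.9, 146 and 246 CPM under drought, against 118, 159 and 178 CPM with normal watering, and was not called (-0.12 ± 0.12; edgeR adjusted p = 0.678). XTH9 fell in gi-2, with 52.3, 75.5 and 128 CPM under drought, against 70.7, 96.5 and 166 CPM with normal watering (-0.36 ± 0.069; edgeR adjusted p = 0.000604), and XTH4 averaged 325 CPM, against 401 CPM (-0.47 ± 0.093; edgeR adjusted p = 0.00129). The low group 2 genes also fell: XTH19 averaged 1.29 CPM under drought, against 4.83 CPM with normal watering (-1.92 ± 0.35; edgeR adjusted p = 0.000637), and XTH18 0.433 CPM, against 1.57 CPM (-2.20 ± 0.54; edgeR adjusted p = 0.00991). XTH14, known from roots, had 0 counts in the 8 gi-2 drought libraries, against 13 counts in the 8 with normal watering, at least 3.50-fold lower with 3 counts over the 8 libraries as the floor; it did not pass the edgeR test. The root marker sum was lower beside these genes. On the log2 scale averaged over times, CAB2 (-0.44 ± 0.098) and CAB3 (-0.40 ± 0.11) of 5 mesophyll markers were called lower. KAT1 of 5 guard cell markers was called lower too. Whether these markers or the root markers had a part in the members' changes was not tested. EXLA1 (-1.08), XTH24 (-0.55), XTH30 (-0.90), XTH20 and EXPA16 (-0.67) also fell. The calls of EXPA16, XTH20 and XTH30 were lost without any 1 of 13, 10 and 7 libraries, among them the library tagged as wild type, and that of EXLA1 without gi-2, normal watering, ZT1, replicate 1 (adjusted p = 0.0599).

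In aba1-6, XTH9 had 33.8, 40.1 and 68.0 CPM under drought, against 61.9, 83.9 and 117 CPM with normal watering (-0.94 ± 0.070; edgeR adjusted p = 1.51e-12). XTH6 had 8.60, 16.7 and 148 CPM under drought, against 15.7, 33.2 and 239.7 CPM with normal watering (-0.92 ± 0.13; edgeR adjusted p = 2.12e-05). For both genes the drought libraries lay below the normal ones at each time; tested time by time, XTH9 passed at all 4 times and XTH6 at ZT12 and ZT16. XTH16 (-0.76), XTH24 (-0.52), XTH8 (-0.41) and XTH4 (-0.41) fell as well, as did EXPA8 (-0.36), EXPA6 (-0.28) and XTH30 (-0.90). The expansins that rose in aba1-6 included EXPA15, EXPB3 and EXLB1, which also rose in wild type. EXPA15 had 68.5, 138 and 171 CPM under drought, against 37.0, 88.8 and 123 CPM with normal watering (0.60 ± 0.076; edgeR adjusted p = 2.02e-07), EXPB3 had 82.7, 129.9 and 226 CPM, against 50.7, 87.7 and 156 CPM (0.56 ± 0.076; edgeR adjusted p = 1.11e-06), and EXLB1 averaged 16.1 CPM, against 10.6 CPM (0.59 ± 0.14; edgeR adjusted p = 0.00528). EXPA11 (0.40), XTH32 (0.40), EXPA4 (0.31), XTH5 (0.51) and EXP3 (0.21) rose too. The calls of EXP3, EXPA8, XTH30 and XTH5 were each lost without any 1 of 10, 3, 7 and 13 libraries (edgeR adjusted p up to 0.18), and that of XTH24 when the fit held the aba1-6 libraries alone.

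The drought effect in gi-2 differed from that in wild type for 14 members (9 higher, 5 lower in the difference), against 6.96% of all genes tested (3.87% higher and 3.09% lower). The leading members were XTH6, with a difference of 1.59 ± 0.17 on the log2 scale (edgeR adjusted p = 8.38e-07), XTH16 with 1.37 ± 0.20 (2.63e-05) and XTH9 with 0.98 ± 0.10 (2.09e-08). EXPA8, XTH24, XTH7, XTH4, EXPA6 and XTH28 had differences between 0.33 and 0.75. The difference contains the wild-type effect, so its sign is tied to that effect. The 5 members with a negative difference were EXLB1 (-0.94 ± 0.19; edgeR adjusted p = 0.00140), EXPA15 (-0.81 ± 0.11; 2.47e-06), EXPB3 (-0.62 ± 0.11; 0.000158), XTH32 (-0.49) and EXPA4 (-0.40). Of EXPA15, gi-2 had 36.9 and 43.1 CPM at ZT1 under drought, against 68.2 and 66.7 CPM with normal watering, where wild type had its drought libraries higher (log2 -0.76 ± 0.16 in gi-2). At ZT8, ZT12 and ZT16 its drought effect in gi-2 was 0.38, 0.32 and 0.16, none of them called, and the time average was 0.026 ± 0.077 (edgeR adjusted p = 0.916). The call of XTH28 was lost without any 1 of 12 libraries (edgeR adjusted p up to 0.0788). RCA (0.46 ± 0.14, edgeR adjusted p = 0.0344) of 5 mesophyll markers and ATML1 of 3 epidermal markers were called higher in the same difference. Their part in the members' differences was not tested.

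The drought effect in aba1-6 differed from that in wild type for 13 members (12 higher, 1 lower), against 2.74% of all genes tested (1.83% higher and 0.914% lower). XTH19 averaged 6.48 CPM in aba1-6 under drought, against 5.63 CPM with normal watering, whereas in wild type the drought level was the lower one; the difference of effects was 2.06 ± 0.43 (edgeR adjusted p = 0.00538). XTH7 (0.66 ± 0.090; edgeR adjusted p = 1.22e-05), XTH4 (0.69 ± 0.13; 0.00214), XTH16 (0.97 ± 0.20; 0.00555) and XTH6 (0.79 ± 0.18; 0.0171) also had less negative effects in aba1-6. EXPA8 (0.72), XTH24 (0.72), XTH9 (0.40), EXPA6 (0.31), EXP3 (0.38), EXLA1 (1.46) and XTH20 were called in the same direction, and EXLB1 (-0.70) in the other. Of the 13 calls, 7 were lost without 1 library: EXLB1 (any of 23), EXLA1 (15), XTH24 (7), XTH20 (6), EXPA6 (3), EXP3 (2) and XTH9 (1). With the compared libraries alone XTH6 was not called (edgeR adjusted p = 0.0502), nor were EXLA1, EXLB1, EXP3 and EXPA6. KAT1, the 1 called of 5 guard cell markers, was higher in the aba1-6 difference, and its part was not tested. Both differences use the same wild-type libraries, so the gi-2 and aba1-6 values are not independent.

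Set against wild type, both mutants had more EXPA8 and EXPA1 transcript in each watering regime. In gi-2 under drought 24 members differed (15 higher, 9 lower; 28.7% of all genes, 15.3% higher and 13.3% lower), and with normal watering 12 (11 higher, 1 lower; 12.7%, 7.1% higher and 5.61% lower). In aba1-6 under drought 22 members differed (10 higher, 12 lower; 22.6%, 11.4% higher and 11.3% lower), and with normal watering 20 (4 higher, 16 lower; 17.0%, 7.64% higher and 9.33% lower). In gi-2 under drought 9 of 20 XTH genes were called, all higher. Beside them the epidermal markers PDF1 (0.87 ± 0.12) and ATML1 (0.67 ± 0.075) were also higher in gi-2 under drought. Of 5 mesophyll markers 4 were called higher on the log2 scale averaged over times, and RBCS1A (-0.049) was not called. Means in gi-2 were 9661 CPM for RCA, 1265 CPM for LHCB2.1, 2690 CPM for CAB3 and 2145 CPM for CAB2. In wild type they were 6684, 1046, 2598 and 2289 CPM in the same order. The part of these markers in the members' differences was not tested.

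EXPA8 in gi-2 had a lowest, median and highest level of 46.3, 61.2 and 97.2 CPM under drought, aba1-6 had 38.9, 70.1 and 146 CPM, and wild type had 5.0, 17.6 and 34.0 CPM. The 8 libraries of each mutant lay above all 8 of wild type. The log2 fold changes were 1.93 ± 0.12 for gi-2 and 2.03 ± 0.12 for aba1-6 (edgeR adjusted p = 3.46e-14 and 8.84e-15). With normal watering they were 1.17 ± 0.11 and 1.31 ± 0.11 (edgeR adjusted p = 1.29e-09 and 1.04e-10). The daily course of EXPA8 with normal watering differed between gi-2 and wild type (edgeR, 3 degrees of freedom, adjusted p = 1.78e-07). At ZT1 gi-2 had 73.5 and 64.7 CPM, against 62.8 and 68.2 CPM in wild type, and at ZT8 81.8 and 69.2 CPM, against 84.5 and 58.4 CPM. At ZT12 gi-2 had 91.8 and 104 CPM, against 29.7 and 23.9 CPM, and at ZT16 103 and 85.0 CPM, against 16.4 and 15.1 CPM. The ZT12 and ZT16 libraries of gi-2 lay above those of wild type, with differences of 1.94 ± 0.23 at ZT12 and 2.57 ± 0.23 at ZT16. aba1-6 had 141 and 162 CPM at ZT8 and 50.1 and 51.3 CPM at ZT16.

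EXPA1, known from leaves and guard cells, was highest in aba1-6. With normal watering aba1-6 had 252, 311 and 428 CPM, against 94.2, 102 and 214 CPM in wild type, without overlap (1.36 ± 0.067; edgeR adjusted p = 4.69e-19). Under drought it had 183, 285 and 401 CPM, against 67.7, 105 and 231 CPM in wild type (1.30 ± 0.067; edgeR adjusted p = 4.59e-19). In gi-2 the difference was smaller, at 0.50 ± 0.067 under drought and 0.58 ± 0.067 with normal watering (edgeR adjusted p = 1.04e-07 and 1.00e-08). With normal watering it differed among the times in gi-2, with 0.15 (ZT1), 0.30 (ZT8), 0.84 (ZT12) and 1.04 (ZT16) (edgeR test of the daily course, adjusted p = 0.00232). For EXPA11 the differences in gi-2 were 0.41, -0.029, 0.82 and 1.02 at ZT1, ZT8, ZT12 and ZT16 (edgeR adjusted p = 0.00375), and in aba1-6 it was lower at ZT1 (-1.0) and higher at ZT12 (0.64; edgeR adjusted p of the daily course = 0.000245).

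The guard cell markers MYB60 (0.77 ± 0.12), KAT1 (0.68 ± 0.088) and FMA (0.24 ± 0.089) were also higher in aba1-6 than in wild type under drought, 3 of 5 tested (edgeR adjusted p = 4.80e-06, 7.76e-08 and 0.0434), and MYB60 alone of the 5 with normal watering (0.72 ± 0.12). The 5 summed to 71.3 to 83.4 CPM in aba1-6 under drought, against 50.2 to 73.3 CPM in wild type. Their part in the levels of EXPA1 was not tested.

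**Figure D3:**
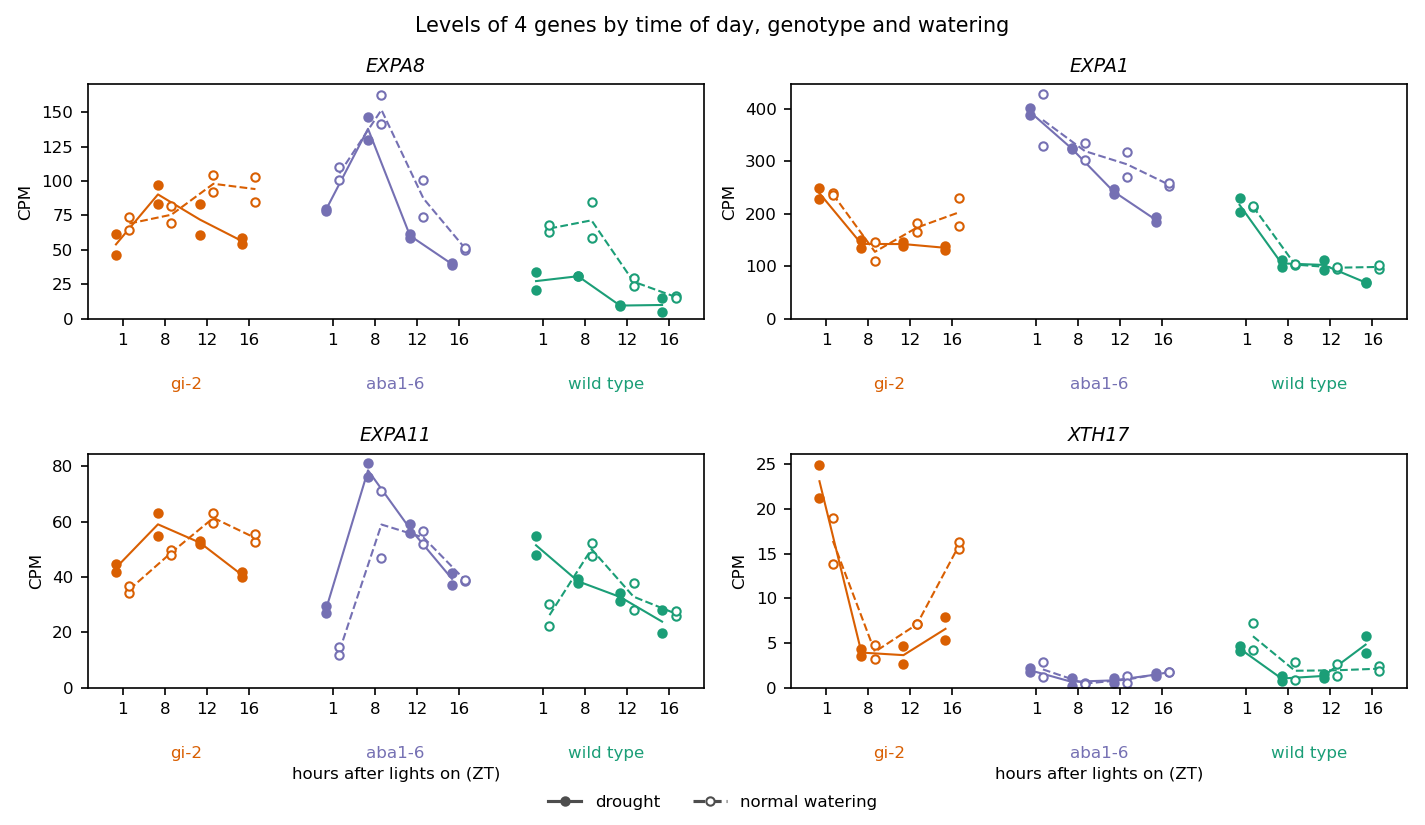
Level in CPM of EXPA8, EXPA1, EXPA11 and XTH17 by zeitgeber time in gi-2, aba1-6 and wild type; each point is 1 library, filled with solid lines for drought and open with dashed lines for normal watering, and lines join the means of 2 libraries. With normal watering the gi-2 points of EXPA8 lie above those of wild type at ZT12 and ZT16; EXPA1 is highest in aba1-6.

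XTH17, known for induction by shade, was raised in gi-2 and lowered in aba1-6. With normal watering gi-2 had 3.23, 10.5 and 19.0 CPM (lowest, median, highest), aba1-6 0.419, 1.26 and 2.86 CPM and wild type 0.891, 2.49 and 7.27 CPM. The log2 fold change against wild type was 1.98 ± 0.23 for gi-2 and -1.16 ± 0.28 for aba1-6 (edgeR adjusted p = 9.54e-09 and 0.00292). Under drought it was 1.51 ± 0.23 for gi-2 and -1.13 ± 0.27 for aba1-6 (edgeR adjusted p = 1.78e-06 and 0.00163). XTH18, with the same 73 bases before its start, was not called in either mutant in either regime. It averaged 1.57 CPM in gi-2, 1.18 CPM in aba1-6 and 1.55 CPM in wild type with normal watering, and its log2 difference in gi-2 was -0.073 ± 0.42 (edgeR adjusted p = 0.947). Of the 50-mers of their transcripts, XTH17 shared 0.171% and XTH18 1.57% with another member, in each case mostly XTH19.

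In gi-2 under drought the higher XTH genes besides XTH17 were XTH6 (1.58 ± 0.13), XTH16 (1.40 ± 0.15), XTH24 (1.26 ± 0.13), XTH4 (1.13 ± 0.095), XTH9 (0.86 ± 0.073), XTH7 (0.81 ± 0.064), XTH28 and XTH8. XTH6 had 89.9, 146 and 246 CPM in gi-2 under drought, against 14.7, 56.4 and 131 CPM in wild type, and with normal watering it did not pass the test (-0.0095 ± 0.12; edgeR adjusted p = 0.977). EXPA6 (0.37), EXP3 (0.47), EXPA11 (0.44) and EXLA1 (1.01) were also higher. The 9 lower members were all expansins: EXPA16 (-1.11), EXPA20 (-0.84), EXPA10 (-0.59), EXPA9 (-0.56), EXPA15 (-0.48), EXLB1 (-0.43), EXPB3 (-0.43), EXPA13 (-0.41) and EXPA4 (-0.26). EXPA10, known for leaf growth, was the 1 member lower with normal watering (-0.51 ± 0.090; edgeR adjusted p = 7.28e-05); it had 33.8, 54.8 and 69.1 CPM in gi-2, against 51.0, 85.0 and 114 CPM in wild type. The calls under drought of EXLB1 (without wild type, drought, ZT12 or ZT16, replicate 1) and of EXPA20 (without wild type, drought, ZT16, replicate 1) were lost (edgeR adjusted p up to 0.0604). EXPA20 overlaps a gene on the opposite strand.

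With normal watering gi-2 also had higher EXPA11 (0.55), XTH24 (0.58), XTH32 (0.51), EXLB1 (0.51), XTH4 (0.50), EXPB1 (0.38), EXPA15 (0.32) and EXP3 (0.20). The root markers AT3G11550 (mean 0.645 CPM in gi-2, against 0.242 CPM in wild type) and AT2G28670 (0.68 ± 0.17) were called higher beside them. So were ATML1 (0.28) of epidermis and KAT1 (0.40) of guard cells, while the guard cell marker FMA was lower (-0.53). Of mesophyll, LHCB2.1 (1.77), CAB2 (1.79) and CAB3 (1.27) were called higher on the log2 scale averaged over times. Their means in gi-2 were 1279, 2220 and 2996 CPM, against 1179, 2333 and 2808 CPM in wild type. The daily course of these 3 differed between gi-2 and wild type, and RBCS1A (-0.15) and RCA (0.20) were not called. The part of all these markers in the members' differences was not tested. Time by time, 3 members differed at ZT1 (1.79% of all genes), 2 at ZT8 (1.19%), 8 at ZT12 (4.5%) and 8 at ZT16 (5.73%). Members and all genes alike had more calls at the times in the extended light than at the times in the short day. The daily course with normal watering differed for 7 members, EXPA1, EXPA8, EXPA11, EXPA16, XTH6, XTH7 and XTH32, against 3.75% of all genes. XTH6 was lower in gi-2 at ZT1 (-1.04 ± 0.23) and stood at 0.11, 0.80 and 0.096 at ZT8, ZT12 and ZT16 (edgeR adjusted p = 0.00557). XTH32 was higher at ZT8 (1.09 ± 0.16) and ZT12 (0.68 ± 0.15) and near wild type at ZT16 (0.039; edgeR adjusted p = 0.00238). Calls lost without 1 library were, for the time-averaged difference, EXP3 (any of 9), EXPB1 (any of 3) and EXLB1 (wild type, normal watering, ZT1 or ZT12, replicate 2; edgeR adjusted p up to 0.159 for the 3 genes), and, for the daily course, EXPA16 (any of 11) and XTH7 (any of 2).

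In aba1-6 the members lower than in wild type were led by XTH6, EXLA1, EXLA2 and XTH24. With normal watering XTH6 had 15.7, 33.2 and 239.7 CPM in aba1-6, against 93.5, 135 and 367 CPM in wild type (-1.73 ± 0.13; edgeR adjusted p = 4.57e-11). EXLA2 had 1.16, 2.09 and 3.68 CPM, against 4.06, 6.39 and 9.11 CPM, without overlap (-1.54 ± 0.19; edgeR adjusted p = 6.28e-08). EXLA1 (-1.71), XTH24 (-1.41 ± 0.13), XTH7 (-0.68 ± 0.064), XTH16 (-0.48), XTH8 (-0.48), XTH32 (-0.45) and XTH9 (-0.41) were lower too, and XTH25 averaged 0.05 CPM in aba1-6, against 0.856 CPM in wild type. Under drought XTH6 was lower (-0.95 ± 0.14), as were EXLA2 (-1.42 ± 0.19), EXLB1 (-1.21 ± 0.13), XTH32 (-0.69 ± 0.070) and EXPB1 (-0.67). The other lower members were EXPB1 (-0.39), EXPA9 (-0.39), EXLB1 (-0.51), EXPB3 (-0.23) and EXPA6 (-0.23) with normal watering, and XTH24 (-0.70), EXPA9 (-0.68), XTH8 (-0.37), EXPB3 (-0.36), EXPA13 (-0.33) and XTH25 under drought. EXPA15 (0.34) and XTH20 (1.65) were higher with normal watering, and XTH16 (0.48), EXPA11 (0.41), EXPA10 (0.39), EXP3 (0.32) and XTH28 (0.25) under drought. Under drought XTH4 was higher (0.59 ± 0.094), with 142, 166 and 323 CPM in aba1-6, against 79.2, 126 and 203 CPM in wild type. XTH19 was higher under drought (2.1 ± 0.32; edgeR adjusted p = 6.22e-06), and XTH20 averaged 2.45 CPM in aba1-6, against 0.146 CPM in wild type, without overlap (edgeR adjusted p = 7.91e-08). The root marker sum was 4.82 to 10.4 CPM in aba1-6 and 5.39 to 9.70 CPM in wild type under drought, and NRT2:1 was higher in aba1-6 (1.5 ± 0.54); their part was not tested.

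With normal watering the epidermal markers PDF1 (-0.39 ± 0.12) and ATML1 (-0.25 ± 0.075) were lower in aba1-6 than in wild type. So were the mesophyll markers RBCS1A (-0.29 ± 0.069) and CAB3 (-0.37 ± 0.11). The floral markers SEP3 (mean 0.798 CPM in aba1-6, against 0.226 CPM in wild type) and PI (1.68 ± 0.38) were higher. The part of these markers in the members' differences was not tested. Under drought SEP3 (mean 0.517 CPM in aba1-6, against 0.150 CPM in wild type) and PI (1.81 ± 0.35) were higher in aba1-6 too (edgeR adjusted p = 0.0143 and 0.000128). The 6 floral markers summed to 1.51 to 5.45 CPM in aba1-6, against 0.770 to 1.68 CPM in wild type. Called lower in aba1-6 under drought were RBCS1A (-0.24 ± 0.069) of 5 mesophyll markers and KCS6 of 3 epidermal markers. Whether these markers had a part in the members' differences was not tested. Calls lost without 1 library were, under drought, XTH16 (any of 5, edgeR adjusted p up to 0.0631) and XTH25 (edgeR adjusted p up to 0.9999). For XTH25 the library was wild type, drought, ZT12, replicate 1 or ZT8, replicate 2. With normal watering they were EXPA9 (any of 10), EXPB3 (any of 9), EXLB1 (any of 2), EXPB1 (aba1-6, normal watering, ZT12, replicate 2) and XTH20 (wild type, normal watering, ZT12, replicate 2), with edgeR adjusted p up to 0.147 for these.

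**Figure D4:**
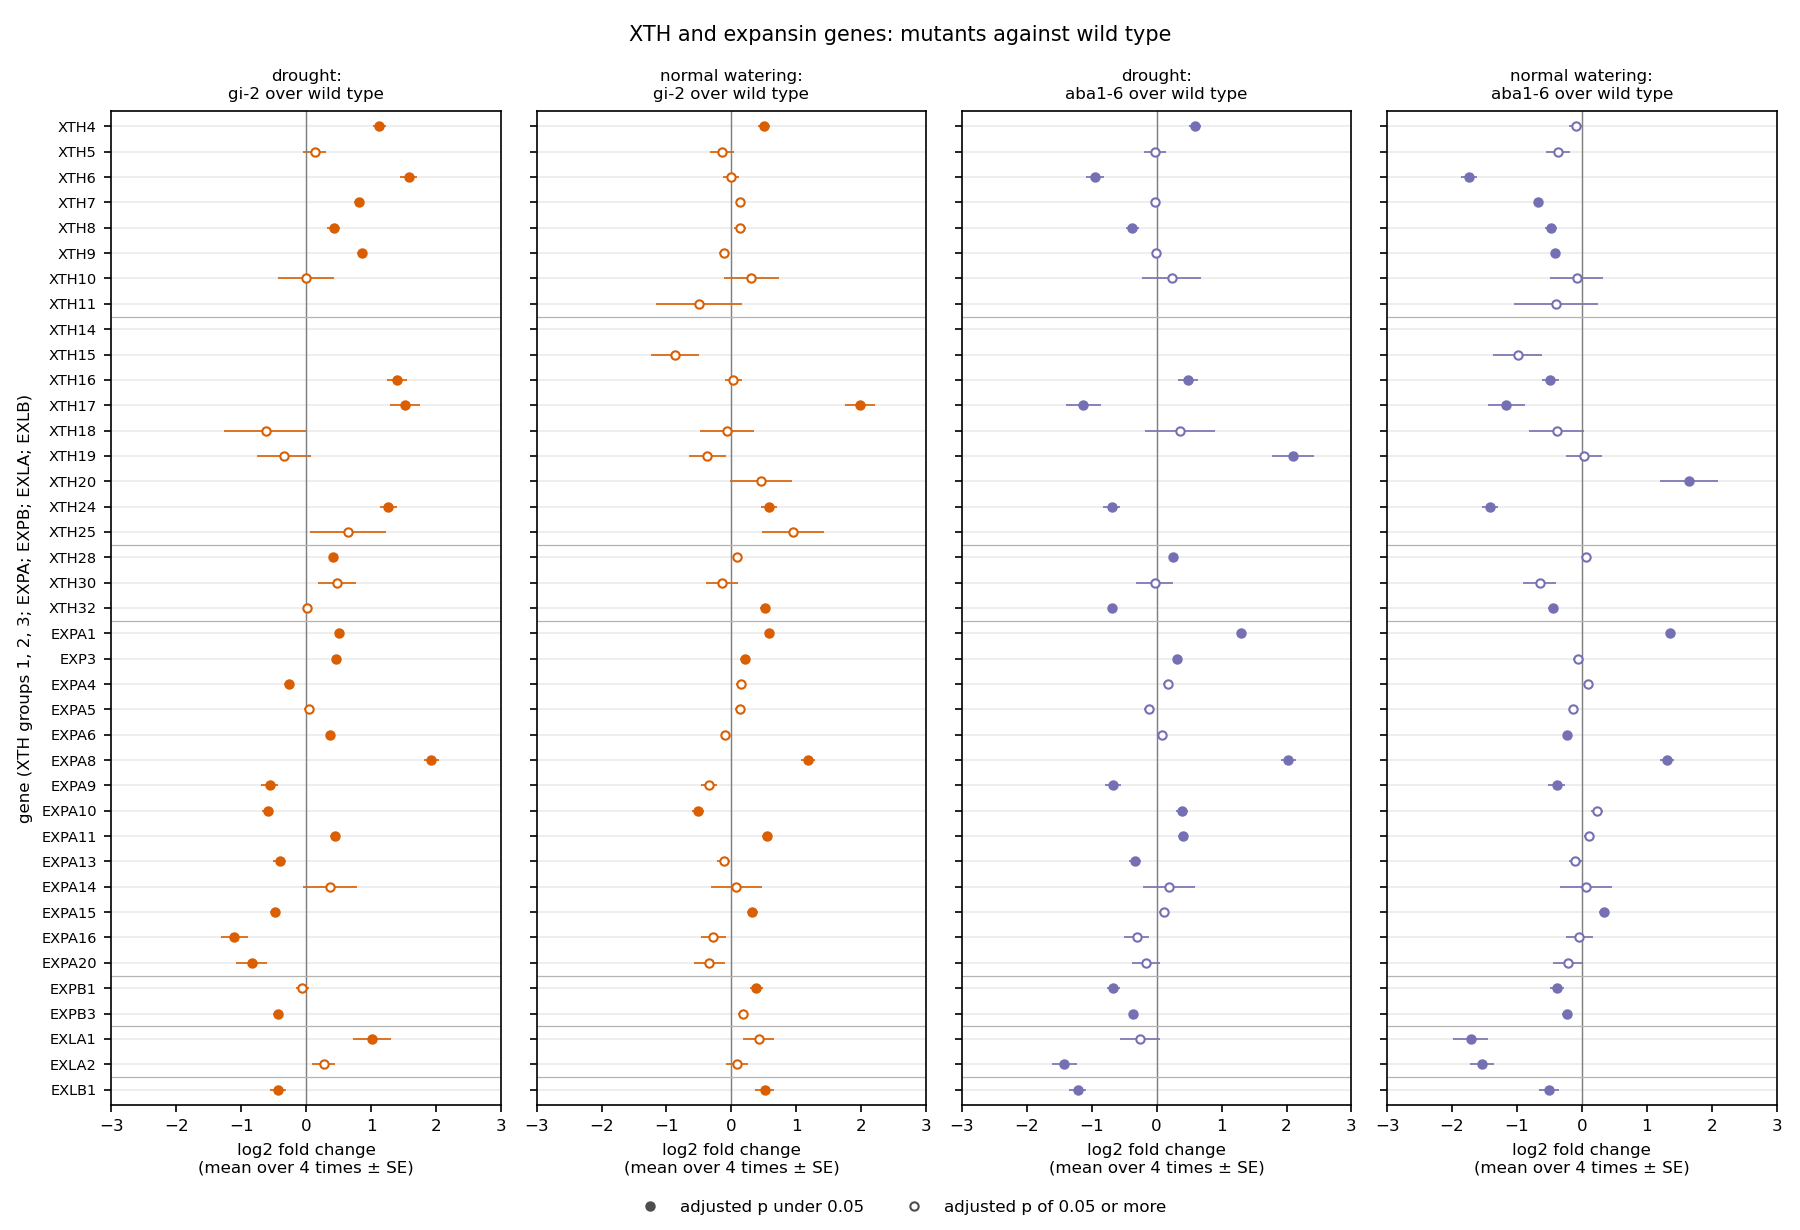
Log2 fold change of gi-2 over wild type under drought and with normal watering, and of aba1-6 over wild type under drought and with normal watering, for the 39 tested members, averaged over the 4 times; points are estimates, bars standard errors from the edgeR fit, filled points those with adjusted p under 0.05. EXPA8 and EXPA1 lie right of 0 in all 4 panels, and XTH6 lies right of 0 in gi-2 under drought and left of 0 in both aba1-6 panels.

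The level of many members changed with the time of day. In wild type with normal watering 23 of the 39 tested members differed among the 4 times, against 38.2% of all genes tested, 11 XTH genes and 12 expansins. By the highest mean, 9 of the 23 peaked at ZT1 (EXPA1, EXPB1, XTH4, XTH6, XTH7, XTH17, XTH19, XTH24 and XTH32), 7 at ZT8 (EXPA8, EXPA11, EXPA16, XTH8, XTH9, XTH16 and XTH28), 0 at ZT12 and 7 at ZT16 (EXPA4, EXPA5, EXPA9, EXPA10, EXPA15, EXPB3 and EXLB1). Members of 1 group peaked at different times, as XTH6 and XTH9 did in group 1.

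EXPB1 had the smallest adjusted p for time of day. It had 62.8 and 62.0 CPM at ZT1, 11.8 and 7.93 CPM at ZT8, 14.6 and 9.07 CPM at ZT12 and 8.07 and 7.78 CPM at ZT16 (edgeR, 3 degrees of freedom, adjusted p = 7.07e-19). The morning libraries stood apart from all others, with a step from ZT1 to ZT8 of -2.73 ± 0.20 on the log2 scale. XTH32 had 79.5 and 72.0 CPM at ZT1, 14.7 and 19.3 CPM at ZT8, 17.7 and 29.4 CPM at ZT12 and 45.9 and 35.6 CPM at ZT16 (edgeR adjusted p = 1.93e-15), and was the 1 member with a called step from ZT12 to ZT16 (0.64 ± 0.15). XTH9 ran the other way, with 85.4 and 71.8 CPM at ZT1, 185 and 175 CPM at ZT8, 99.0 and 113 CPM at ZT12 and 99.3 and 107 CPM at ZT16 (edgeR adjusted p = 6.70e-09). EXPA1 had 213 and 214 CPM at ZT1 and between 94.2 and 104 CPM at the later times (edgeR adjusted p = 1.03e-10).

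Between ZT1 and ZT8, 17 members changed (29.5% of all genes). Between ZT8 and ZT12, 7 changed (9.12%), with EXPA8 the most (-1.46 ± 0.23), and between ZT12 and ZT16 1 did (1.33%). In aba1-6 the daily course differed from that of wild type for 3 members, EXPA11, XTH9 and EXPA16, against 0.205% of all genes. XTH9 was lower in aba1-6 at ZT8 (-1.05 ± 0.14), with 90.4 and 83.2 CPM, against 185 and 175 CPM in wild type, and stood at 0.054 at ZT16 (edgeR adjusted p of the daily course = 0.0133). Calls lost without 1 library were EXPA16 and XTH9 in aba1-6 (any of 3 libraries each; edgeR adjusted p up to 0.276), and, for time of day, XTH16 (any of 6), EXPA5 and XTH8 (any of 3 each), XTH7 (any of 2) and XTH17 (1 library; adjusted p = 0.17).

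**Figure D5:**
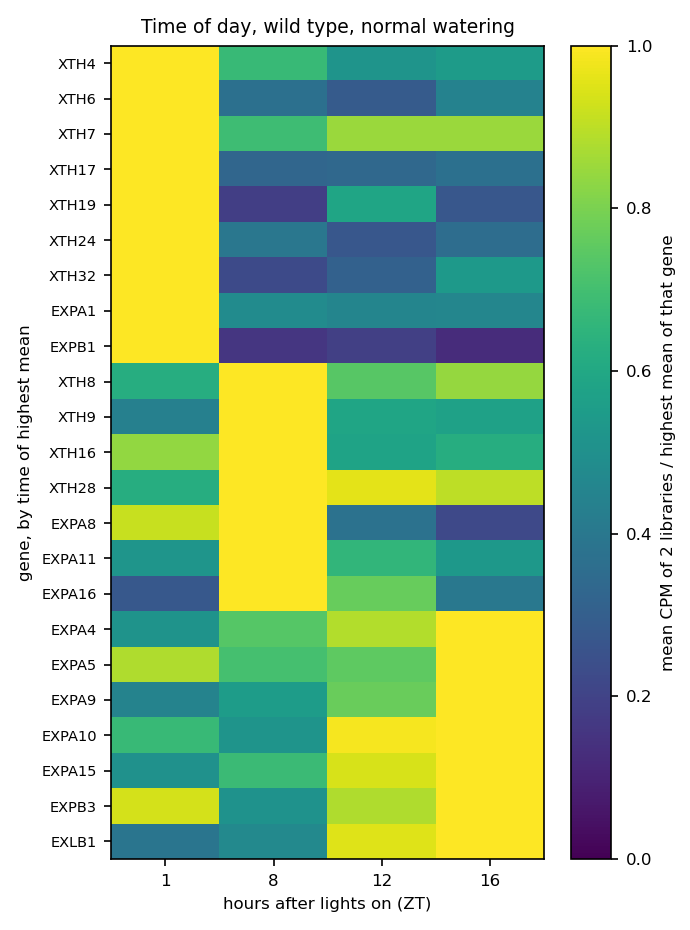
Mean level of the 23 members called for time of day in wild type with normal watering, at ZT1, ZT8, ZT12 and ZT16, as a share of each gene's highest mean; each cell is the mean of 2 libraries. EXPB1 and XTH32 are near their highest level at ZT1 only, and no member is highest at ZT12.

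Lists of genes that make or trim the substrates of these proteins, or act beside them, are read against 5.17% of all genes called under drought in gi-2, 9.32% in aba1-6 and 23.0% in wild type. Of 13 tested genes of xyloglucan synthesis, 2 rose and 2 fell under drought in wild type, among them MUR3, a xyloglucan galactosyltransferase gene, higher (0.23 ± 0.071), and CSLC04, a glucan synthase gene of the xyloglucan backbone, lower (-0.42 ± 0.074); in gi-2 and in aba1-6 the same 2 genes were the ones called (MUR3 0.26 and 0.28, CSLC04 -0.25 and -0.30). Of 10 tested genes of xyloglucan and wall glycan turnover, 1 fell in gi-2, 1 rose and 1 fell in aba1-6, and 2 rose and 1 fell in wild type, where GH9C2, an endoglucanase family gene, averaged 493.6 CPM under drought, against 422.7 CPM with normal watering (0.21 ± 0.058). In gi-2 against wild type under drought 5 of the 10 were higher and 0 lower, beside 28.7% of all genes called, among them XYL1, a xyloglucan xylosidase gene (0.50 ± 0.078). Of 8 genes of cellulose synthesis in primary walls, 0 changed under drought in gi-2 and in aba1-6 and 1 fell in wild type, and 6 were higher in gi-2 than in wild type under drought. Of 9 plasma membrane proton pump genes, 1 fell in gi-2, 0 changed in aba1-6, and 1 rose and 2 fell in wild type; the falls included HA2, a main pump gene, in gi-2 (-0.31 ± 0.097) and wild type (-0.64 ± 0.098). Of 24 genes of brassinosteroid synthesis and signalling, a hormone pathway known to promote wall loosening, 1 fell in gi-2 under drought, 5 fell and 1 rose in aba1-6, and 10 fell and 0 rose in wild type, among them the receptor gene BRI1 (-0.28 ± 0.058) and the synthesis gene DWF1 (-0.39 ± 0.053). The median log2 fold change of the 24 in wild type was -0.19. Under drought 8 of the 24 were higher in gi-2 than in wild type and 10 in aba1-6, with 0 lower. Of all genes 28.7% and 22.6% were called there. With normal watering 4 were higher and 1 lower in gi-2 (12.7% of all genes), and 8 higher and 1 lower in aba1-6 (17.0%). Of the 13 genes of xyloglucan synthesis, 5 were lower and 1 higher in aba1-6 than in wild type under drought. With normal watering 5 were lower and 0 higher. Family members listed under other names moved both ways in wild type: EXGT-A3, an XTH gene of group 3 known from leaf veins, averaged 35.1 CPM under drought, against 58.4 CPM with normal watering (-0.74 ± 0.086), XTR6 0.437 CPM, against 3.98 CPM, and XTR8 rose (0.21 ± 0.062), 3 of 5 tested.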

How the data were processed

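The deposited table holds expected counts per gene name, which the authors deposited without normalization as far as the values show; Bowtie2, RSEM, edgeR and TAIR10 are named per the submitters' processing notes, with roles and versions not given in the sources used here, nor whether counting used strand. Of the values, 98.6% were whole numbers, and all were rounded for testing. Every line ended in an extra tab, which was dropped, and 26200 names matched 1 locus each. Genes were filtered with filterByExpr, leaving 19037, and fitted with edgeR 4.0.16 (R 4.3.3, limma 3.58.1; TMM, quasi-likelihood, robust) as 24 group means over 48 libraries with 24 residual degrees of freedom, and p-values were adjusted by Benjamini-Hochberg over all genes at a threshold of 0.05. Time-averaged contrasts give each time equal weight. DESeq2 1.42.0 was an alternative. Tables and figures used Python 3.11.15, pandas 2.3.3, numpy 2.4.6 and matplotlib 3.10.9. The scripts were tested on simulated data. Total counts ranged from 1920012 to 26925706.

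Named genes are every called member (at most 24 a comparison), the 6 members of highest level per kb of coding sequence, members below the filter, and called genes of the pathway lists. The members and lists were chosen with earlier results of these data known. The library gi-2, drought, ZT16, replicate 2 carries a genotype tag of wild type and a title of gi-2; it was grouped by its title and the fit was repeated without it. Sequences and gene models are RefSeq's TAIR10.1, in which all 49 members matched a promoter; motifs were searched on both strands. Where both libraries of a group were at 0, the report gives no fitted fold, except that of XTH20 among the flagged results.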

Additional observations from a re-analysis of the deposited data

Results flagged for a closer look

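By an edgeR test of the difference itself, 14 members responded to drought differently in gi-2 than in wild type. As the log2 drought effect in gi-2 minus that in wild type, the values were XTH6 (1.59), XTH16 (1.37), XTH9 (0.98), EXPA8 (0.75), XTH24 (0.69), XTH7 (0.68), XTH4 (0.63), EXPA6 (0.47), XTH28 (0.33), EXPA4 (-0.40), XTH32 (-0.49), EXPB3 (-0.62), EXPA15 (-0.81) and EXLB1 (-0.94). Each value contains the wild-type effect, so its sign is tied to that effect.

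Between aba1-6 and wild type the same test called 13 members, with log2 differences of XTH20 (3.74), XTH19 (2.06), EXLA1 (1.46), XTH16 (0.97), XTH6 (0.79), EXPA8 (0.72), XTH24 (0.72), XTH4 (0.69), XTH7 (0.66), XTH9 (0.40), EXP3 (0.38), EXPA6 (0.31) and EXLB1 (-0.70). The value of XTH20 comes from a fit in which some groups were at 0 and is no measure of size. Both sets of differences use the same wild-type libraries.

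The difference between a mutant and wild type with normal watering changed over the 4 times for 7 members in gi-2, with edgeR adjusted p (3 degrees of freedom) for EXPA8 (1.78e-07), EXPA1 (0.00232), XTH32 (0.00238), EXPA11 (0.00375), XTH6 (0.00557), XTH7 (0.00577) and EXPA16 (0.0490). In aba1-6 it did so for EXPA11 (0.000245), XTH9 (0.0133) and EXPA16 (0.0337). In wild type the drought effect itself changed over the 4 times, with edgeR adjusted p for XTH9 (7.44e-06), XTH7 (0.000204), EXPA11 (0.000941), XTH6 (0.00784), EXPA15 (0.0328) and XTH16 (0.0439).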

How the results depend on the processing

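Over 13 member counts and 8 alternatives (library totals as the only scaling, no filter, a filter at 5 CPM, a replicate block, DESeq2, only the compared libraries, without the library tagged as wild type, without the 2 libraries of lowest total), 96 of 104 counts stayed within 1.5 times and 0 called members changed direction. For the mutants against wild type, the replicate block fit compared levels fitted to replicate 1 and not the averaged difference. The count of members whose drought effect differed between aba1-6 and wild type was 8 with only the compared libraries, against 13. The daily course in gi-2 gave 11 members without a filter, against 7. In aba1-6 it gave 10 without a filter, 7 with the replicate block and 5 with DESeq2, against 3. The drought effect by time in wild type gave 11 without a filter, 3 with only the compared libraries and 10 with DESeq2, against 6. The cause of these shifts was not tested.

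Leaving out 1 of the 48 libraries in turn gave 6 to 10 members for drought in gi-2, 14 to 17 in aba1-6 and 21 to 25 in wild type. It gave 22 to 24 for gi-2 against wild type under drought and 10 to 12 with normal watering, and 20 to 23 and 18 to 22 for aba1-6. The differences of drought effects gave 13 to 15 for gi-2 and 7 to 13 for aba1-6, time of day 19 to 26, the daily course 5 to 9 (gi-2) and 2 to 5 (aba1-6), and the drought effect by time 3 to 9.

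Over all genes, the call count for drought in gi-2 was 984, and 1615 with the replicate block and 1964 with only the compared libraries. For drought in wild type it was 4371, and 2456 with only the compared libraries. For the difference of effects it was 1325 in gi-2, and 2678 with the block, and 522 in aba1-6, and 998 without a filter, 1510 with the block and 305 with only the compared libraries. For the daily course it was 713 in gi-2, and 1194 without a filter and 1143 with the block, and 39 in aba1-6, and 418, 243, 123 (DESeq2), 69 (without the 2 libraries of lowest total) and 15 (only the compared libraries). For the drought effect by time it was 156, and 704 without a filter, 520 with the block, 274 with DESeq2 and 17 with only the compared libraries.

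With library totals as the only scaling, the share of called genes that were higher was 54.9% against 44.6% for drought in wild type, 38.4% against 53.5% for gi-2 and 63.4% against 50.1% for aba1-6 (both against wild type under drought), 66.9% against 45.0% for aba1-6 with normal watering, and 41.2% against 55.6% for the gi-2 difference of effects. The members' split under drought in wild type stayed at 7 higher and 16 lower.

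The replicate numbers share no stated origin: deviations of same-numbered wild-type libraries correlated by 0.0655 to 0.258 over 28 pairs of groups (over 0.1 in 23), and 1 of 28 pairs was over 0.1 in gi-2 and 1 in aba1-6. With the replicate block EXLB1 and EXPB1 were not called in gi-2 with normal watering (edgeR adjusted p = 0.154 and 0.133), XTH8 in gi-2 under drought (0.0558), EXPA13, XTH16 and XTH28 in aba1-6 under drought (0.0642, 0.201 and 0.108), and EXPB3, EXPA9 and XTH20 in aba1-6 with normal watering (0.137, 0.0771 and 0.238). In that fit the block was a shift of replicate 2 within each genotype. A contrast of mutant and wild type then compares levels fitted to replicate 1, so these values do not test the averaged difference. The 2 libraries per group limit all per-time values, and the 10 members below the filter were not tested.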
